A study of Homo sapiens with 6 samples.

Results

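The 10 genes described here encode the enzymes of melanin synthesis and proteins of the melanosome, the organelle in which pigment cells make and store melanin. They were taken by gene symbol, and all 10 were found, each in 1 row, among 17766 genes of the gene-named expression table. Their levels were set between WM266-4, a human melanoma cell line labelled as a skin metastasis, and WM115, a human melanoma line labelled as a primary skin tumour. Both lines, which are known to come from the same patient, grew in DMEM with foetal bovine serum, and no treatment is given for either. Each is a single line carried in culture, so that a difference between the lines cannot be told apart from a difference between metastasis and primary tumour. Each line was measured in 3 biological repeats. Repeat 1 was hybridised to Affymetrix Human Gene 1.0 ST arrays and repeats 2 and 3 to 2.1 ST arrays, with another RNA kit. Gene levels are log2 signals as deposited, and a difference is WM266-4 minus WM115.

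Melanin is made from tyrosine inside melanosomes. Tyrosinase starts the pathway, its relatives TYRP1 and DCT act on later intermediates, and PMEL forms the amyloid fibrils on which the pigment is laid down. Channels and exchangers of the melanosome membrane set its pH and ion content, and small GTPases with their partners bring the cargo to it. In melanocytes and many melanomas these genes are switched on together by the transcription factor MITF, which binds E-box sequences, with SOX10 acting beside it.

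In WM266-4, 9 of the 10 genes rose, by 2.00 to 6.91 log2, none fell, and OCA2 was not called (limma over all genes, dim ones included, adjusted p under 0.05). In the same fit 9.56% of all 17766 genes were called higher and 9.86% lower, 19.4% together. The median difference was 4.31 log2 over the 10 genes, while that of all genes lay at 0. TYR, DCT, SLC24A5 and PMEL ranked 1 to 4 among all genes by difference. RAB38 ranked 10, MLANA 13 and SLC45A2 15, whereas TYRP1 ranked 103, GPR143 106 and OCA2 6110. The genes are a choice made with earlier results of these data known, so these ranks describe them and are no independent test.

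Array medians lay between 5.18 and 5.23. Within a line, the differences between a pair of arrays had an SD over genes of 0.21 to 0.31 log2. In the deposited table each gene has nearly the same mean on either array version (the 2 means lie a median of 0.0031 apart). The level of a line in repeat 1 therefore cannot be set against its level in repeats 2 and 3, and the SDs below carry this adjustment. Statements below on whether the lines overlapped over all 6 arrays describe the deposited values and carry it too. The difference between the lines within a repeat is used here as deposited, and whether the adjustment also changed it was not tested. No detection calls were used, so a low level is not read as absence of the transcript. Levels under the 30th percentile of all genes (a mean of 3.97 over the 6 arrays) are called dim here, and 8 of the 9 genes that passed this filter had a WM115 mean below it and passed through WM266-4 alone. For the 9 genes that passed, differences, errors and adjusted p-values come from the fit of the 12436 genes that were not dim, in which 13.6% were called higher. With dim genes kept, the adjusted p-values of these 9 genes were 5e-05 to 0.0057.

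Promoter windows of these genes are shown because the known binding site of MITF can be read in some of them. Whether MITF has a part in the differences between the lines was not tested. RefSeq (GRCh38.p14) gave windows of 300 bases, 250 before to 50 after a transcription start, for 7 of the 10 genes, namely TYR, TYRP1, DCT, MLANA, SLC24A5, OCA2 and GPR143. The letters TCATGTG, the core of the M-box of pigment gene promoters, occur on either strand in 5 of these 7 genes, against 3.59% of all 27305 genes with a window and 2.92% of all windows. The M-box is known from promoters of pigment genes, so this share describes the genes and is no independent test. They start 105 bases before the start site in TYR, 145 in TYRP1, 215 and 135 before the downstream start of DCT, 15 in SLC24A5, and 61 and 33 in GPR143. The shorter E-box CATGTG, which every TCATGTG contains, adds a match in OCA2 and further ones in TYR and TYRP1, and is found in 13.4% of all genes with a window. The E-box CACGTG is in none of the 7 (8.77% of all genes). The SOX-type letters ACAAAG are in OCA2 alone (19.0% of all genes) and ACAATG in SLC24A5 alone (13.0%). A match is a run of letters and not a measured binding site. Below, the 5 genes with TCATGTG are followed by OCA2, the gene that did not pass the test, each 5' to 3' on the gene's strand, with TCATGTG and CATGTG or their reverse complements CACATGA and CACATG in capitals.
TYR, chr11:89177625-89177924, plus strand: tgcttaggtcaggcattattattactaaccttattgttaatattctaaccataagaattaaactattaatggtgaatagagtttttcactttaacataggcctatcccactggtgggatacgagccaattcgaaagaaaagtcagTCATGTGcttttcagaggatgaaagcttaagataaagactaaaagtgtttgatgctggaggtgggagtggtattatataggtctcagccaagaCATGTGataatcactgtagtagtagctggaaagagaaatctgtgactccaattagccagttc
TYRP1, chr9:12693135-12693434, plus strand: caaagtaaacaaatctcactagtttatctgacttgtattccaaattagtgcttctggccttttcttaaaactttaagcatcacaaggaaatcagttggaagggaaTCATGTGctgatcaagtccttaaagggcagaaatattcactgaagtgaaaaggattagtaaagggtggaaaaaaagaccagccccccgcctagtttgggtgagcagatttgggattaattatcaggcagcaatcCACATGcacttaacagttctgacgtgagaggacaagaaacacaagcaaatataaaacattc
DCT, chr13:94479633-94479932, minus strand: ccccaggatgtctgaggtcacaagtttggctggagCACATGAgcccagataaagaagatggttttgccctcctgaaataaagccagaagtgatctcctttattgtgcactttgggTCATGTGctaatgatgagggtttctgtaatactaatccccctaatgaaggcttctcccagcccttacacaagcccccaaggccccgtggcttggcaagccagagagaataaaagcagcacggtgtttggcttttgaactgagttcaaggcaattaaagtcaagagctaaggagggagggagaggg
SLC24A5, chr15:48120740-48121039, plus strand: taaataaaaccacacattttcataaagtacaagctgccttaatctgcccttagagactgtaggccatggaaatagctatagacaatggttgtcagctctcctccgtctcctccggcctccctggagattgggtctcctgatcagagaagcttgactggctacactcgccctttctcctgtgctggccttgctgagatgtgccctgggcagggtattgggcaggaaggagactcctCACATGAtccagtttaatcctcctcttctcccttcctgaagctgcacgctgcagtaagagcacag
GPR143, chrX:9765798-9766097, minus strand: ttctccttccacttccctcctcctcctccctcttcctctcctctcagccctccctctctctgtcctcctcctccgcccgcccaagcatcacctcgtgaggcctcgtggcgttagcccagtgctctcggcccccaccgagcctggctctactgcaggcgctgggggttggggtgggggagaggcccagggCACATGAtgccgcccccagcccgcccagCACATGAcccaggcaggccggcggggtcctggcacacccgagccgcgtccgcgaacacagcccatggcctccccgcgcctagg
OCA2, chr15:28099266-28099565, minus strand: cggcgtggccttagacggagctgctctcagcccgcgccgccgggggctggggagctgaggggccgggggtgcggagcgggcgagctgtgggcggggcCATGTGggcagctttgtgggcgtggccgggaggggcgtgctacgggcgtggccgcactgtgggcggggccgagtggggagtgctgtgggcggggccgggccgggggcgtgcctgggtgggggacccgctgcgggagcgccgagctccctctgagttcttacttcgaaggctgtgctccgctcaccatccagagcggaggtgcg
TYR, the gene with the largest difference, and TYRP1, one of the smallest that was called, both hold TCATGTG and a second CATGTG close to the start site. MLANA, which rose, and the upstream start of DCT hold neither motif in their windows.

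**Figure D1:**
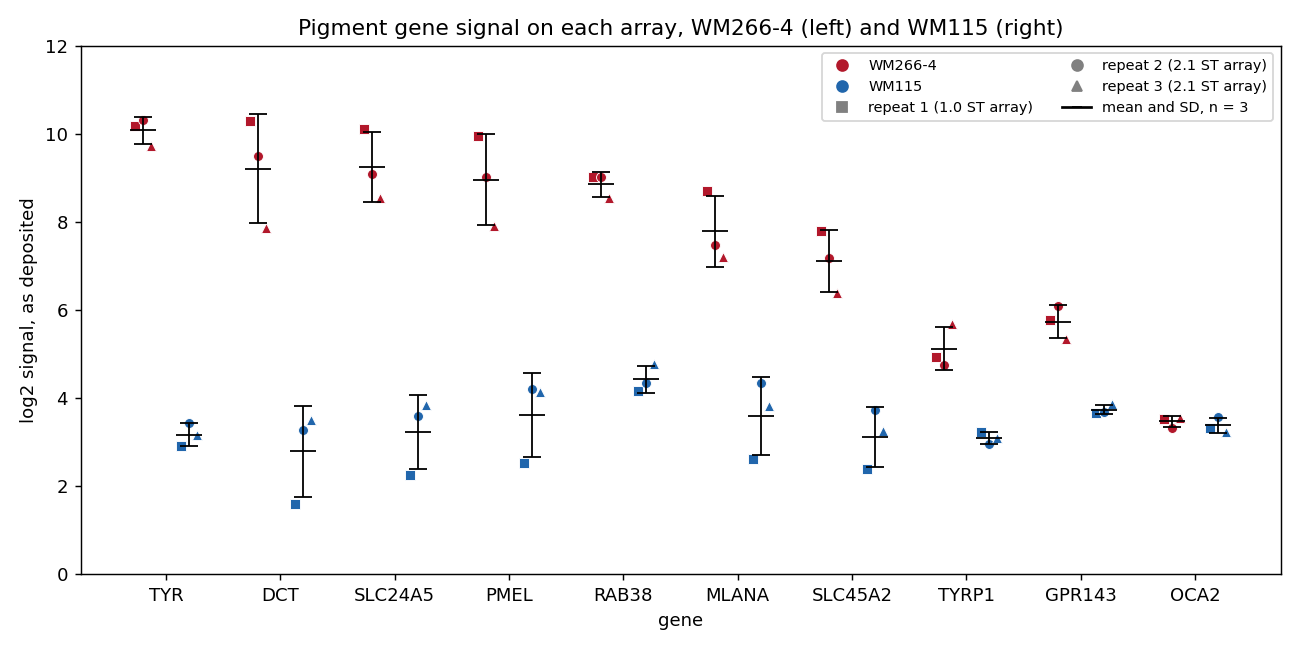
Log2 signal of each gene on each array, with WM266-4 in red to the left of WM115 in blue; symbols mark the repeat and its array version, and bars give the mean and SD over 3 arrays. WM266-4 lies above WM115 without overlap for every gene shown except OCA2, whose 6 values lie between 3.24 and 3.57.

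Of the 3 enzymes, TYR and DCT had larger signal differences than TYRP1. All 3 had dim WM115 means, so the sizes of these differences can depend on the array's background. TYR, tyrosinase (ENSG00000077498), the enzyme that oxidises tyrosine at the start of the pathway, had 10.19, 10.32 and 9.73 in WM266-4 repeats 1 to 3, against 2.92, 3.43 and 3.17 in WM115. All 3 WM266-4 arrays were high and all 3 WM115 arrays were dim, without overlap. TYR rose by 6.91 log2, a 120-fold ratio of signals, with a standard error (SE) of 0.20, a 95% interval of 6.43 to 7.39 and an adjusted p of 3.2e-05. DCT (ENSG00000080166), dopachrome tautomerase, which converts the intermediate dopachrome, had 10.29, 9.49 and 7.86 in WM266-4 and 1.59, 3.27 and 3.5 in WM115. The lines did not overlap, but the gap between them was unequal across repeats, and the difference of 6.43 carried a wide interval of 4.63 to 8.22 (SE 0.74, adjusted p = 0.0028). TYRP1 (ENSG00000107165), the third member of the tyrosinase family, a melanosomal oxidase that also stabilises tyrosinase, had 4.94, 4.75 and 5.68 in WM266-4, against 3.23, 2.96 and 3.09 in WM115. It rose by 2.03 (SE 0.25, interval 1.43 to 2.63, adjusted p = 0.0033), a 4.08-fold ratio of signals, so its interval lies wholly below those of TYR and DCT.

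PMEL and MLANA both rose. PMEL (ENSG00000185664), the fibril protein of the melanosome matrix, had 9.96, 9.02 and 7.90 in WM266-4, against 2.53, 4.20 and 4.14 in WM115, a difference of 5.34 (SE 0.64, adjusted p = 0.0032). MLANA (ENSG00000120215), also called Melan-A or MART-1, a small melanosomal membrane protein and a T-cell antigen of melanoma, had 8.70, 7.47 and 7.20 in WM266-4, against 2.62, 4.35 and 3.83 in WM115. Its difference was 4.19 (SE 0.55, adjusted p = 0.0042), an 18.2-fold ratio of signals. For both genes every WM266-4 array was above every WM115 array, and the pair of repeat 1 stood wider apart than the later pairs.

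Transporters of the melanosome split into a pair that rose and OCA2, which did not pass the test. SLC24A5 (ENSG00000188467), a potassium-dependent sodium-calcium exchanger whose variants affect human skin colour, had 10.11, 9.08 and 8.55 in WM266-4, against 2.25, 3.59 and 3.84 in WM115. It rose by 6.02 (SE 0.54, adjusted p = 0.0013). SLC45A2 (ENSG00000164175), a sugar and proton carrier that keeps melanosomal pH high enough for tyrosinase and is altered in a form of albinism, had 7.79, 7.18 and 6.38 in WM266-4, against 2.38, 3.72 and 3.26 in WM115. It rose by 4.00 (SE 0.46, adjusted p = 0.0027), again with no overlap between the lines. OCA2 (ENSG00000104044), the P protein, a chloride channel component of the melanosome membrane altered in another form of albinism, had 3.52, 3.32 and 3.56 in WM266-4, against 3.33, 3.57 and 3.24 in WM115. Its values overlapped and were dim in both lines. OCA2 differed by 0.09 log2, with an SE of 0.13 and a 95% interval of -0.23 to 0.40 (adjusted p = 0.72 with dim genes kept). With both lines dim, this difference does not show whether the transcript itself differed.

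The receptor and the GTPase rose by unequal amounts. GPR143 (ENSG00000101850), a G-protein coupled receptor of the melanosome membrane altered in ocular albinism, had 5.77, 6.10 and 5.35 in WM266-4, against 3.66, 3.68 and 3.86 in WM115, a difference of 2.00 (SE 0.20, adjusted p = 0.0019). RAB38 (ENSG00000123892), a small GTPase that delivers TYR and TYRP1 to maturing melanosomes, had 9.03, 9.02 and 8.54 in WM266-4, against 4.17, 4.35 and 4.77 in WM115. Its difference was 4.43 (SE 0.21, adjusted p = 0.00014), and it was the one gene of the set whose WM115 mean, 4.43, was not dim. In both genes every WM266-4 array lay above every WM115 array.

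The 95% intervals of the differences overlapped for many of the genes. Those of TYR, DCT, SLC24A5 and PMEL overlapped one another. RAB38, MLANA and SLC45A2 overlapped one another and also reached into the intervals of DCT, SLC24A5 and PMEL, so these genes are not ordered by their intervals, while none of the 3 reached that of TYR. TYRP1 and GPR143 overlapped each other, with upper bounds of 2.63 and 2.49 below the lowest bound of the genes above them, 2.85 for MLANA. In 9 of the 10 genes, all but RAB38, the WM115 mean was dim, and with no detection calls these WM115 signals were not shown to lie above the array's background. The sizes of the differences, and so their order between genes, can depend on that background and were not measured apart from it.

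**Figure D2:**
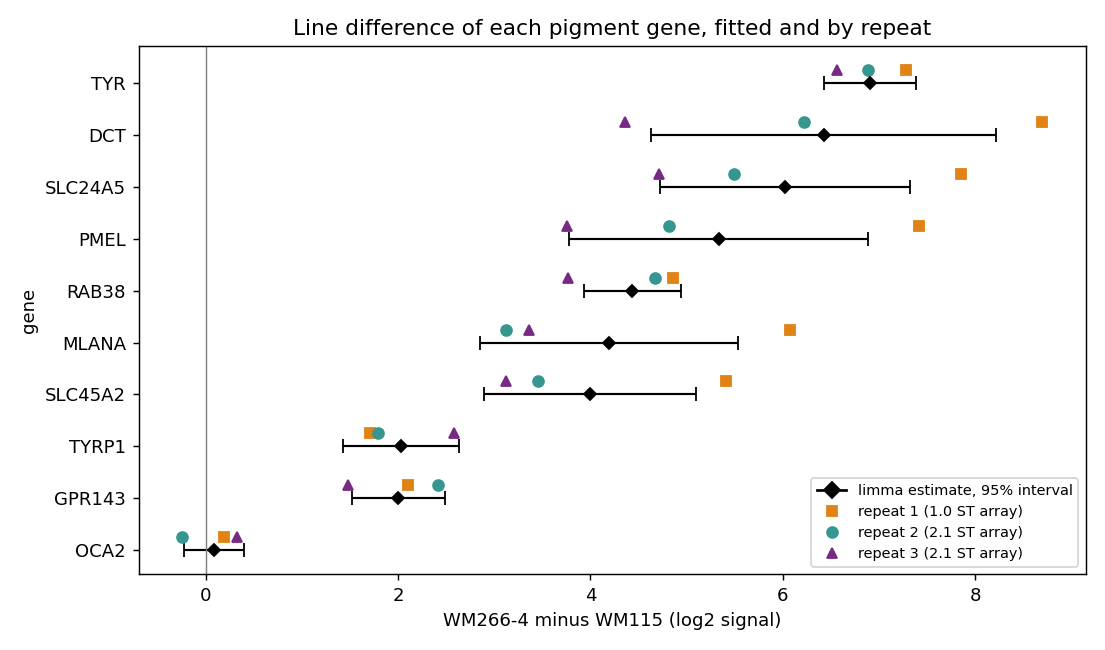
WM266-4 minus WM115 in log2 signal for each gene; diamonds with bars give the limma estimate with its 95% interval, and coloured symbols above them the difference within each repeat. DCT, SLC24A5, PMEL, MLANA and SLC45A2 have their largest difference in repeat 1, on the 1.0 ST arrays, well to the right of repeats 2 and 3, and OCA2 straddles 0.

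The difference between the lines was larger in repeat 1, the 1.0 pair, than in repeats 2 and 3 for part of the set. In a limma test of the line difference on the 2.1 arrays minus that on the 1.0 pair, 5 of 9 genes were called with a smaller difference on the later arrays and none with a larger one, against 2.44% of all tested genes called smaller and 3.03% called larger, 5.48% together. With dim genes kept, 4 of 10 were called smaller, against 1.89% of all genes smaller and 2.36% larger, 4.25% together. DCT differed by 8.70 in repeat 1, 6.22 in repeat 2 and 4.36 in repeat 3. Its later mean difference, 5.29, was thus 3.41 below the first (SE 0.75, adjusted p = 0.040, and 0.0545 with dim genes kept). PMEL gave 7.42 on the 1.0 pair and 4.29 on the 2.1 arrays (adjusted p = 0.014), and MLANA 6.08 and 3.24 (adjusted p = 0.0027). For the transporters the values were 7.85 and 5.1 for SLC24A5 (adjusted p = 0.0032) and 5.41 and 3.29 for SLC45A2 (adjusted p = 0.036). All 5 stayed positive in each repeat. TYR, with 7.28 and 6.73, RAB38, with 4.86 and 4.22, GPR143, with 2.10 and 1.95, and TYRP1, with 1.71 and 2.19, were not called in this test (adjusted p from 0.41 to 0.89). Array version, RNA kit and repeat changed together, so they cannot be told apart here. The 1.0 side is 1 array per line, and the error of this test comes from repeats 2 and 3 alone.

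On the 2.1 arrays, where the repeats of a line can be set against each other, WM266-4 repeat 3 was lower than repeat 2 in 8 of the 10 genes and in 46.9% of all genes. The differences ran from -0.28 for MLANA to -1.12 for PMEL and -1.63 for DCT, with a median of -0.56. Over all genes the same pair of arrays had a median difference of 0.01. TYRP1 (0.93) and OCA2 (0.25) were higher in repeat 3. In WM115 the same pair of repeats gave a median of 0.03 over the 10 genes, with 5 lower in repeat 3, beside 49.1% of all genes. Of the factors and receptors upstream of pigment genes, MITF was 0.27 lower in WM266-4 repeat 3 than in repeat 2. By the same difference TFAP2B was at -0.62, EDNRB at -0.41 and IRF4 at -0.35, while TFE3 (0.25), TFEB (0.21) and MC1R (0.13) were higher. Over all genes this difference had an SD of 0.21. Whether MITF has a part in the lower levels of repeat 3 was not tested. These are single arrays without a test.

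Among transcription factors and receptors upstream of pigment genes, 5 of 11 tested rose, 2 fell and 4 were not called, with a median difference of 0.25 beside 0.01 over all tested genes, of which 26.9% were called. MITF, the master factor of the melanocyte lineage, had 7.48, 7.47 and 7.20 in WM266-4, against 4.40, 4.62 and 4.64 in WM115, a difference of 2.83 (SE 0.13, adjusted p = 0.00014). SOX10, the neural crest factor that acts with MITF, had 7.99, 8.26 and 8.04 in WM266-4, against 8.01, 8.08 and 7.63 in WM115, so the lines overlapped and the difference of 0.19 was not called (interval -0.19 to 0.57, adjusted p = 0.42). PAX3, a factor of the same lineage, was at 0.25 (adjusted p = 0.16). The developmental factor TFAP2B rose by 2.76 (SE 0.24), the endothelin receptor EDNRB by 1.5 (SE 0.27), the Wnt effector LEF1 by 1.31 (SE 0.20) and the melanocortin receptor MC1R by 0.86 (SE 0.13). IRF4, which cooperates with MITF at the TYR gene in melanocytes, fell by 0.94 (SE 0.15), and TFE3, a relative of MITF, fell by 0.49 (SE 0.12), with adjusted p-values of 0.0073 and 0.031. The TFE3 call was lost when either WM266-4 or WM115 lacked replicate 2 or 3 (adjusted p 0.080 to 0.12), which left 1 factor called lower, and that of EDNRB without WM115 replicate 2 (0.0525).

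Of 17 tested other products of pigment cells, 8 rose, 1 fell and 8 were not called, beside 13.6% higher and 13.3% lower over all tested genes. Their median difference was 0.76, beside 0.01 over all tested genes. QPCT, a glutaminyl cyclase, had 9.0, 7.61 and 6.65 in WM266-4, against 2.15, 4.12 and 4.14 in WM115, a difference of 4.28 (SE 0.76, adjusted p = 0.010). The melanocyte cation channel TRPM1 rose by 1.54 (SE 0.34), the membrane glycoprotein GPM6B by 1.51 (SE 0.17), the TNF-superfamily receptor TNFRSF14 by 1.33 (SE 0.14), the protease CAPN3 by 0.98 (SE 0.17) and the transcriptional cofactor CITED1 by 0.79 (SE 0.17). SLC7A11, the cystine importer that feeds synthesis of the red-yellow pigment pheomelanin, fell by 1.08 (SE 0.13, adjusted p = 0.0033). No WM266-4 array of SLC7A11 reached a WM115 array, at 8.73 to 9.02 against 9.84 to 10.11. Without WM266-4 replicate 2 or WM115 replicate 3 only 4 of these genes were called higher, and without WM115 replicate 2 only 5. The TRPM1 call was lost in these 3 fits (adjusted p 0.058 to 0.092) and that of CITED1 without WM266-4 replicate 2 or WM115 replicate 3 (0.071 in each).

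The machinery that builds and moves melanosomes, part of which other cell types use for other organelles as well, is given next. Of 24 tested genes of the BLOC, HPS, AP-3, RAB and motor groups, 1 rose, 2 fell and 21 were not called, beside 13.6% higher and 13.3% lower over all tested genes, and their median difference was -0.03. HPS1, a subunit of the BLOC-3 complex that activates RAB38 and RAB32, rose by 0.70 (SE 0.10, adjusted p = 0.0051). VPS41, a subunit of the HOPS tether, fell by 0.58 (SE 0.11, adjusted p = 0.012), and AP3B1, the beta subunit of the AP-3 adaptor, fell by 0.43 (SE 0.10, adjusted p = 0.024). RAB32, the closest relative of RAB38 and able to stand in for it in mouse melanocytes, was at 0.09 (interval -0.22 to 0.40, adjusted p = 0.66). The AP3B1 call was lost with the replicate number as a block (adjusted p = 0.0518) and when any 1 of the 4 arrays of repeats 2 and 3 was left out (0.080 to 0.097), and that of VPS41 without WM266-4 replicate 3 (0.055). With no array-version term 6 genes of the list were called higher and 6 lower.

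A pair of these transport genes, singled out after their values were seen, had unequal line differences on the array versions. RAB27A, which anchors mature melanosomes to actin, differed by 2.66 on the 1.0 pair and by -0.16 on the 2.1 arrays (version difference -2.83, SE 0.31, adjusted p = 0.0021). Its differences in repeats 2 and 3 were 0.20 and -0.53, which share no direction. MLPH, melanophilin, which links RAB27A to the motor myosin Va, differed by 0.99 and -1.74 (version difference -2.73, SE 0.29, adjusted p = 0.0019). For MLPH repeats 2 and 3 gave -1.41 and -2.07, both opposite in sign to repeat 1. Over all 6 arrays neither was called, at 0.78 and -0.83. QPCT, at 6.85 and 3.00, followed the same order as the 5 pigment genes (adjusted p = 0.0034).

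**Figure D3:**
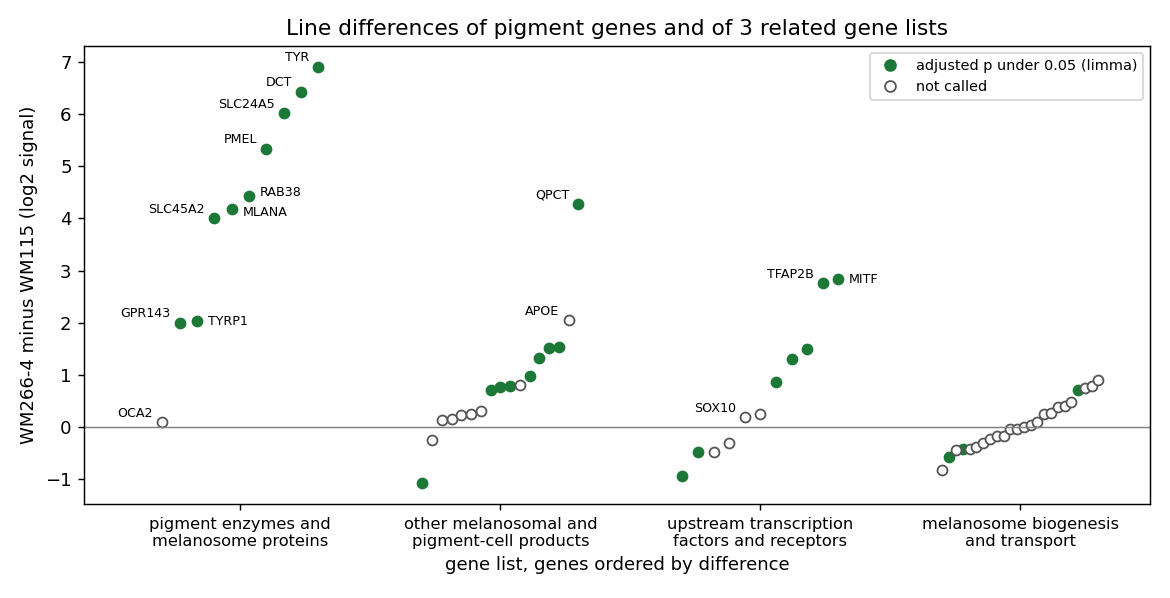
WM266-4 minus WM115 in log2 signal for the 10 pigment genes and for the tested genes of 3 related lists, ordered by difference within each list; filled points have an adjusted p under 0.05. The pigment genes reach from 0.09 for OCA2 to 6.91 for TYR, while the genes of melanosome biogenesis and transport all lie within 1 log2 unit of 0.

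The 6 genes outside the set whose profile over the 6 arrays lay nearest to the median profile of the 10, each gene centred on its own mean, were BST2, QPCT, APOC1, PI15, NELL1 and PDE3B. Their root mean square distances from it were 0.38 to 0.55 log2, while those of the 10 genes themselves ran from 0.23 for SLC45A2 and 0.26 for MLANA to 2.21 for OCA2. BST2 is an antiviral membrane protein and APOC1 an apolipoprotein. BST2 differed by 4.22 (SE 0.16) and APOC1 by 4.14 (SE 0.73). With 6 arrays of 2 lines this likeness is set mostly by the size of the line difference.

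The melanocytic label of both lines was set against marker genes. SOX10, PAX3 and S100B, markers outside the set, were above the dim level on all 6 arrays and were not called between the lines. The remaining markers outside the set, MITF and the growth factor receptor ERBB3, were called higher in WM266-4. They rose by 2.83 and 1.97 (limma adjusted p 0.00014 and 0.0477), and ERBB3 was not called with dim genes kept (0.061). Of all 8 melanocyte markers 5 were called higher, beside 13.6% of all tested genes. These 5 include TYR, PMEL and MLANA, which belong to the set chosen with earlier results known. The count is therefore no independent test of the label. Averaged per array, 8 melanocyte markers, which include TYR, PMEL and MLANA, stood at 8.18 to 8.54 in WM266-4 and 5.55 to 5.82 in WM115. Such means are set between the lines within a list and not between lists. S100B, a calcium-binding protein of neural crest derivatives, had 9.06, 10.05 and 10.06 in WM266-4 and 10.23, 9.12 and 9.38 in WM115. Its difference was -1.17 in repeat 1, 0.93 in repeat 2 and 0.68 in repeat 3. Markers of other cell types gave per-array means of 3.22 to 3.45 in WM266-4 and 3.52 to 3.77 in WM115 for 8 keratinocyte genes. For 8 leukocyte genes they were 3.80 to 4.04 in WM266-4 and 3.90 to 4.16 in WM115. For 5 endothelial genes these means were 3.81 to 3.91 in WM266-4 and 4.10 to 4.26 in WM115, and for 9 fibroblast genes 4.78 to 4.93 in WM266-4 and 4.69 to 4.92 in WM115. The leukocyte marker PTPRC stayed between 2.25 and 2.37 on all 6 arrays and the keratinocyte marker KRT14 between 3.59 and 3.86, both dim. By their mean over the 6 arrays, 1 of 8 keratinocyte, 2 of 8 leukocyte, 2 of 5 endothelial and 7 of 9 fibroblast genes were not dim. CD68 had 7.64 to 8.77 in WM266-4 and 9.14 to 10.21 in WM115, and KDR 4.27 to 4.97 and 6.2 to 6.95. The fibroblast gene FAP had 7.65 to 8.29 and 7.56 to 7.83, and COL1A2 7.78 to 10.03 and 4.03 to 5.93. Of the tested markers of these other types only COL1A2, a collagen chain, rose (4.48, SE 0.75), with 1.85 on the 1.0 pair and 5.79 on the 2.1 arrays. The keratinocyte desmosome gene DSP (-1.48), the macrophage marker CD68 (-1.76), the endothelial receptor KDR (-1.91) and the fibroblast genes COL3A1 (-2.01) and PDGFRB (-1.02) fell. The part of these markers in the differences of the pigment genes was not tested.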

How the data were processed

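Gene levels are log2 signals that the authors deposited for 6 arrays in 1 gene-named table, made with RMA in Affymetrix Expression Console per the submitters' processing notes. How the 2 array versions were brought onto 1 scale is not stated in the labels used, and the near-equal gene means of the versions were read from the values. The unit carries no read depth; 3 arrays per line limit the precision. Separate value tables of each version, also log2 as deposited, were not used for genes because their probe sets are not paired with names here.

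Of 18887 rows, 1121 repeat a symbol; the 17766 genes were tested with limma 3.58.1 in R 4.3.3, with line and array version as terms and Benjamini-Hochberg adjustment. All adjusted p-values are from limma, two-sided, over all genes tested, called under 0.05. The main fit leaves out genes with a mean under the 30th percentile (12436 kept); fits without this filter are named. The version test adds an interaction. The fit was tested on simulated data with independent noise, in which gene means were not made equal between the array versions. That simulation does not show how the fit behaves under such an adjustment. The members and lists were chosen with earlier results of these data known. All members are named. From each list the up to 6 called genes of largest difference per direction are named, with MITF and SOX10 always; RAB32, PAX3, RAB27A, MLPH, S100B, TFAP2A, APOE, ERBB3, the other-cell markers and the chromosome neighbours were named after values were seen. Alternatives changed the filter, normalization, version term, replicate block, prior and arrays used. Promoters are RefSeq windows on GRCh38.p14; no label used here names the build behind the expression table.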

Additional observations from a re-analysis of the deposited data

Results flagged for a closer look

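For the genes below the line difference was unequal between the 2.1 arrays and the 1.0 pair, by limma's test of the first minus the second. The 1.0 side holds 1 array per line, and array version, RNA kit and repeat changed together, so they cannot be told apart. Of the pigment genes, this value was -3.41 for DCT, -3.13 for PMEL, -2.84 for MLANA, -2.75 for SLC24A5 and -2.12 for SLC45A2, all with a smaller difference in the later repeats. Among related genes it was -4.75 for APOE, whose line difference was 5.22 in repeat 1, 0.91 in repeat 2 and 0.03 in repeat 3, and -3.85 for QPCT. It was -2.83 for RAB27A and -2.73 for MLPH. It was positive for S100B (1.98), TFAP2A (1.46) and EDNRB (1.26), and for the melanocyte marker ERBB3 (2.97), a growth factor receptor with a line difference of 0.0 on the 1.0 pair and 2.96 later. Among markers of other cell types it was 3.94 for COL1A2, -2.08 for CD68, -1.74 for DSP and -1.13 for PDGFRB.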

How the results depend on the processing

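All 139 alternatives fitted for the line differences of the 10 genes kept direction and side of the threshold. The adjusted p was up to 0.024 for the 9 called genes. Among them, leaving out either repeat 1 array gives the same fit as the 2.1 arrays alone, each counted separately. A stricter filter, at the 50th percentile, left TYRP1, SLC45A2 and GPR143 untested, so 6 genes were called there. The fits that left out arrays for OCA2 were chosen after seeing the data. Of the version differences, 60 were kept, that of DCT was not called without the filter (0.0545) or after quantile normalization (0.063), and that of GPR143, not called, turned to 0.22 without WM266-4 replicate 3, its values with 1 array left out ranging over -0.53 to 0.22. The number of all genes called, 3343, became 1400 to 1808 with 1 array of repeat 2 or 3 left out. It was 3914 on the 2.1 arrays alone and 4714 with no array-version term. For melanosome biogenesis and transport, the 1 gene called higher became 3 with the stricter filter or a prior trend, 2 after quantile normalization or on the 2.1 arrays alone and 6 with no array-version term, and the 2 called lower became 6 with no array-version term. With 1 array of repeat 2 or 3 left out these counts were 1 to 3 higher and 0 to 1 lower, and on the 2.1 arrays alone 2 and 3. Other products called higher were 4 to 6 with 1 such array left out and 10 on the 2.1 arrays alone. Upstream factors called lower were 1 and 2 in these fits. Whether the replicate number pairs the samples could not be told. Deviations of same-numbered arrays from their line's mean correlated at -0.26 and -0.4 in repeats 2 and 3, and at -1 in repeat 1. The equal version means fix the value of repeat 1. Because deviations of a line sum to 0, the equal means also lower the values of repeats 2 and 3. With the replicate block, 2398 genes were called, all 9 pigment genes among them, and 2 transport genes higher and 1 lower. With 3 arrays per line, the errors of the main fit rest on 3 residual degrees of freedom and on 3.38 more from limma's prior over all genes.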

Other observations

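The genes next to DCT on chromosome 13, 5 on each side in RefSeq order, were singled out after their values were seen. Of these 10 genes 6 were called higher in WM266-4 by limma without a filter, where 9.56% of all genes were, and their median difference was 0.68. GPR180, a receptor-like membrane protein, was higher by 1.73 (SE 0.18, adjusted p = 0.0027), the glypican GPC6 by 1.45 (SE 0.33, adjusted p = 0.029), the drug and nucleotide exporter ABCC4 by 1.42 (SE 0.12, adjusted p = 0.0016) and TGDS by 1.32 (SE 0.16, adjusted p = 0.0040). NDFIP2 and SPRY2, an inhibitor of growth factor signalling, were higher by 0.72 and 0.64. TYR and RAB38 lie close together on chromosome 11, in the order RAB38, CTSC, GRM5, TYR and NOX4. Between and beside them, the lysosomal protease CTSC was higher by 0.40 (adjusted p = 0.037), while the glutamate receptor GRM5 was at 0.03 and the NADPH oxidase NOX4 at -0.06. PMEL lies next to the cell-cycle kinase CDK2, which was higher by 1.08 (SE 0.25, adjusted p = 0.030), and on its other side to the lipid kinase DGKA, which was lower, at -0.75 (SE 0.13, adjusted p = 0.012). The other 8 genes near PMEL were not called.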
